A study of Mus musculus with 11 samples.

Results

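The circadian clock genes described here are Dbp, Tef, Nr1d1, Nr1d2, Per1, Per2, Per3, Ciart, Bhlhe40 and Arntl, 10 of the 29809 named genes counted in a single-cell RNA sequencing study of mouse colonic mucosa. They were chosen by symbol, with earlier results of these data known. All 10 were found in the deposited gene table. The study took mucosa stripped of muscle from mice with colitis and from controls, and 11 libraries with 55603 cells were used, with 1 library per group. Each library was a pool of mice, so a level in a library is a level of that pool.

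The DSS groups were wild-type mice about 2 months old that had been given 3% dextran sulfate sodium (DSS), a polysaccharide that injures the colonic epithelium, for 6 days. Mice were dissected on 1 of 9 days, counted from the first exposure. The libraries of days 7, 11 and 18 are labelled as batch C. By the authors' cell table they were run fresh from 3 mice each. The 6 other DSS libraries, of days 6, 9, 12, 16, 19 and 23, have no such label, and by the cell table they were frozen suspensions of 8 mice each. Another library came from Il10-/- mice about 10 months old, whose colitis arises without DSS because the anti-inflammatory cytokine interleukin 10 is missing. The last came from uninjured wild-type mice about 2 months old, so genotype and age cannot be told apart in the Il10-/- library. Both of these were frozen suspensions of 8 mice. All tissue was digested with enzymes, and per the labels' protocols the frozen suspensions were thawed and run together, apart from batch C. The hour at which mice were dissected is not given in the sources used here.

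The circadian clock is a feedback loop of transcription factors that runs in nearly every cell of the body. Arntl, also called Bmal1, pairs with Clock and activates genes through E-boxes. Among these are the Per genes and Ciart, whose products repress Arntl and Clock, and Bhlhe40, whose product competes for E-boxes. They also include Nr1d1 and Nr1d2, the REV-ERB receptors, which bind ROR elements and repress Arntl. Dbp and Tef are PAR bZIP factors that carry the rhythm outwards through D-boxes, and Nfil3 opposes them at the same sites. In the mouse intestine these genes cycle over the day, with Arntl in a phase opposed to Dbp and Nr1d1, and meal times set the phase.

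The loop acts through such sites in promoters and other regions, and 4 promoter windows are shown because together they hold every kind of site searched. The windows run from 250 bases before to 50 bases after a RefSeq gene start on the GRCm38.p6 build, and capitals mark the site. Ciart at chr3:95882179-95882478 on the minus strand holds 3 E-boxes (CACGTG). Per3 at chr4:151044616-151044915 on the minus strand holds 2 D-boxes (TTATGNAA). Per1 at chr11:69098699-69098998 on the plus strand holds 1 E-box and 1 D-box. Arntl at chr7:113207261-113207560 on the plus strand holds 1 ROR element (TAGGTCA).
Ciart: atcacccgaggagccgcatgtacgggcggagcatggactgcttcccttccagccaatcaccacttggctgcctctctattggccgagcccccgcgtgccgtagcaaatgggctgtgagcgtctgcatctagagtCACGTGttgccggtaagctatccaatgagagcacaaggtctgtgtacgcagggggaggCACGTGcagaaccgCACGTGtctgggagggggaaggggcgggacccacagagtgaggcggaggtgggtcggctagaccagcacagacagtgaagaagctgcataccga
Per3: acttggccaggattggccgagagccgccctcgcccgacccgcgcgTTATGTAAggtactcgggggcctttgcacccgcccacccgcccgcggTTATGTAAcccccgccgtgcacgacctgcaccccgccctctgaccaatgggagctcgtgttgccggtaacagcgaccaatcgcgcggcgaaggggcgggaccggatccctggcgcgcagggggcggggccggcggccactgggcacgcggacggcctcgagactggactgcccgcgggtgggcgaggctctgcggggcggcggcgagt
Per1: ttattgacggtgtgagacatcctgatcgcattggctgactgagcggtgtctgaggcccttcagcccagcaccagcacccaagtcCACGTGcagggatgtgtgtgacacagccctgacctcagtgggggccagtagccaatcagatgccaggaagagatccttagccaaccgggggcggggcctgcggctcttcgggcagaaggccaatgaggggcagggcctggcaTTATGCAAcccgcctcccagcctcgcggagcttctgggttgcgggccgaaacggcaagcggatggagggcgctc
Arntl: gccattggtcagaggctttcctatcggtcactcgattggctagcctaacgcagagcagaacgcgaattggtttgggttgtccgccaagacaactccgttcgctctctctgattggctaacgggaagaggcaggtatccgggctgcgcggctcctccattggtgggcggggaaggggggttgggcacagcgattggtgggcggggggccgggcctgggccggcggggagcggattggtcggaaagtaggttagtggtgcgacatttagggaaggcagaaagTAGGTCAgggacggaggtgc

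The set of promoter windows used here covered 8 of the 10 genes, as 11 entries, and had none for Per2 and Bhlhe40. Both Tef windows held 1 E-box each, and the windows of Dbp, Nr1d1 and Nr1d2 held none of the 3 motifs. Per1 and Arntl each had another window, at chr11:69099902-69100201 and chr7:113207215-113207514, and these held none of the 3 motifs either. Searched on both strands over 32544 promoter windows of the same length, the E-box was found in 7.17%, the D-box in 3.39% and the ROR element in 2.61%. A match describes these letters and is not evidence of binding in these cells. Dbp itself lies at chr7:45705088-45710203 on the plus strand, Nr1d1 at chr11:98767932-98775333 on the minus strand and the Arntl gene at chr7:113207465-113314126 on the plus strand (mm10, GENCODE vM21). Tef lies at chr15:81802421-81826863 (plus), Nr1d2 at chr14:18204054-18239127 (minus), Per1 at chr11:69095217-69109960 (plus), Per2 at chr1:91415982-91459324 (minus), Per3 at chr4:151003652-151044665 (minus), Ciart at chr3:95878503-95882251 (minus) and Bhlhe40 at chr6:108660629-108666925 (plus).

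Levels are given as CPM, the UMI counts of a gene scaled to a fixed total of UMI counts of a cell class in a library. Libraries of batch C held 79445942 to 87491138 counts, against 7963048 to 24896041 in the 8 others. Cell classes were joined from the authors' types, and their own markers were high in every library. The 5 fibroblast markers summed to between 25347 and 46249 CPM in fibroblasts, the 5 columnar markers to between 8927 and 12299 CPM in columnar epithelial cells and the 5 endothelial markers to between 2642 and 4126 CPM in blood endothelial cells. At most 41 cell barcodes were shared by a pair of libraries, 0.999% of the smaller one. The counting method's use of strand is not given in the sources used here, so counts of Dbp and of Sphk2, which overlaps it on the other strand, cannot be fully told apart. In fibroblasts Sphk2 had 6.29 to 7.75 CPM in batch C, against 4.45 to 6.59 CPM in the other DSS libraries, 8.72 CPM in the Il10-/- library and 9.56 CPM in the uninjured one. The same holds for Nr1d1 and Thra, Ciart and C920021L13Rik, and Bhlhe40 and 0610040F04Rik. Thra had 103 to 131 CPM in fibroblasts of batch C, against 76.1 to 94.7 CPM in the other DSS libraries. It had 91.2 CPM in the Il10-/- library and 89.1 CPM in the uninjured one. Per3 overlaps Camta1 on the same strand.

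Dbp, the output factor, had the widest range of the 10 genes in fibroblasts. Its level there was 4.21, 13.1 and 9.17 CPM on days 7, 11 and 18 in batch C, and in the 6 other DSS libraries it was lowest at 27.9, had a median of 77.2 and was highest at 172 CPM. It was 266 CPM in the Il10-/- library and 360 CPM in the uninjured one. Every batch C library lay below every other library, and the uninjured library was the highest. The highest and the lowest library differed 85.6-fold, with 50 to 1205 counts of Dbp per library. In batch C on day 7 the level was 0.0117 times that of uninjured fibroblasts (exact Poisson 95% interval of the ratio 0.0094 to 0.0144). On day 6, outside batch C, it was 0.0939 times (0.0693 to 0.125), and on day 23 it was 0.477 times (0.422 to 0.539). In Il10-/- fibroblasts the ratio was 0.739 (0.681 to 0.801). These intervals cover counting error only, and with 1 library per group a difference from the uninjured library has no replicate check.

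A like order of libraries was seen for Dbp in other stromal cells. Smooth muscle cells or pericytes, the contractile cells of vessels and mucosa, had 14.5, 39.6 and 28.4 CPM on days 7, 11 and 18 in batch C, and 54.9 (lowest), 156 (median) and 358 CPM (highest) in the 6 other DSS libraries. The Il10-/- library had 444 CPM and the uninjured one 374 CPM in this class. Blood endothelial cells had 9.25, 12.97 and 25.4 CPM on those days in batch C, against 25.6, 64.1 and 197 CPM as the lowest, median and highest of the 6 others. They had 220 CPM in the Il10-/- library and 279 CPM in the uninjured one. In neither class did batch C overlap the other DSS libraries, but in endothelial cells the margin was narrow. Day 18 in batch C had an interval of 17.3 to 36.1 CPM and day 9 one of 6.97 to 65.5 CPM, from 4 counts. In the uninjured library the levels of smooth muscle cells or pericytes (267 to 509 CPM), fibroblasts (340 to 381 CPM) and blood endothelial cells (185 to 403 CPM) did not differ beyond these intervals, and in the Il10-/- library fibroblasts and blood endothelial cells (157 to 299 CPM) did not.

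Columnar epithelial cells had less Dbp than these stromal classes in the uninjured library, at 87.0 CPM (78.4 to 96.2). On days 7, 11 and 18 in batch C the level was 4.03, 13.2 and 4.05 CPM, and in the 6 other DSS libraries 9.59, 33.5 and 49.0 CPM were the lowest, median and highest. In the Il10-/- library it was 34.7 CPM, 0.399 times the uninjured level (0.335 to 0.475). Day 11 of batch C lay inside the range of the other DSS libraries and days 7 and 18 lay below it. The uninjured library was again the highest. The mix of the authors' types within this class differed between libraries. Their Crypt-1 type had 440 of 1827 cells on day 11 and 22 of 1725 on day 7. The part of this mix in the levels of the class was not tested.

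Immune cells had little Dbp in most libraries. Medians over the 11 libraries were 3.14 CPM in monocytes or macrophages, 7.51 CPM in T cells and 8.80 CPM in B cells. Smooth muscle cells or pericytes had 104 CPM and fibroblasts 63.4 CPM. Neutrophils had a median of 2.74 CPM over 10 libraries, but 13.4 CPM on day 19 and 34.5 CPM on day 23 (19.7 to 56.0 CPM, from 16 counts). In monocytes or macrophages the level was 0.620, 2.90 and 2.28 CPM on days 7, 11 and 18 in batch C, against 2.11, 3.50 and 5.60 CPM as the lowest, median and highest of the other DSS libraries, 6.64 CPM in the Il10-/- library and 7.55 CPM in the uninjured one, from 2 to 30 counts. RNA released from other cells can add counts to a class in droplet data. The fibroblast gene Col3a1 had 0.190% to 0.848% of its fibroblast level in monocytes or macrophages, and Dbp had 2.10% to 24.8%, above Col3a1 in 11 of 11 libraries. In T cells and in B cells Dbp was above Col3a1 in 10 of 11. Dbp was also high in endothelial, smooth muscle and columnar epithelial cells. The level of Col3a1 in endothelial and smooth muscle cells is not given here. This comparison therefore cannot say how much of the Dbp in immune cells was carried over. T cells of the uninjured library had 0 counts of Dbp in 38 cells. A count of 3 there would stand for 53.3 CPM, so a level under this could not be detected.

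**Figure D1:**
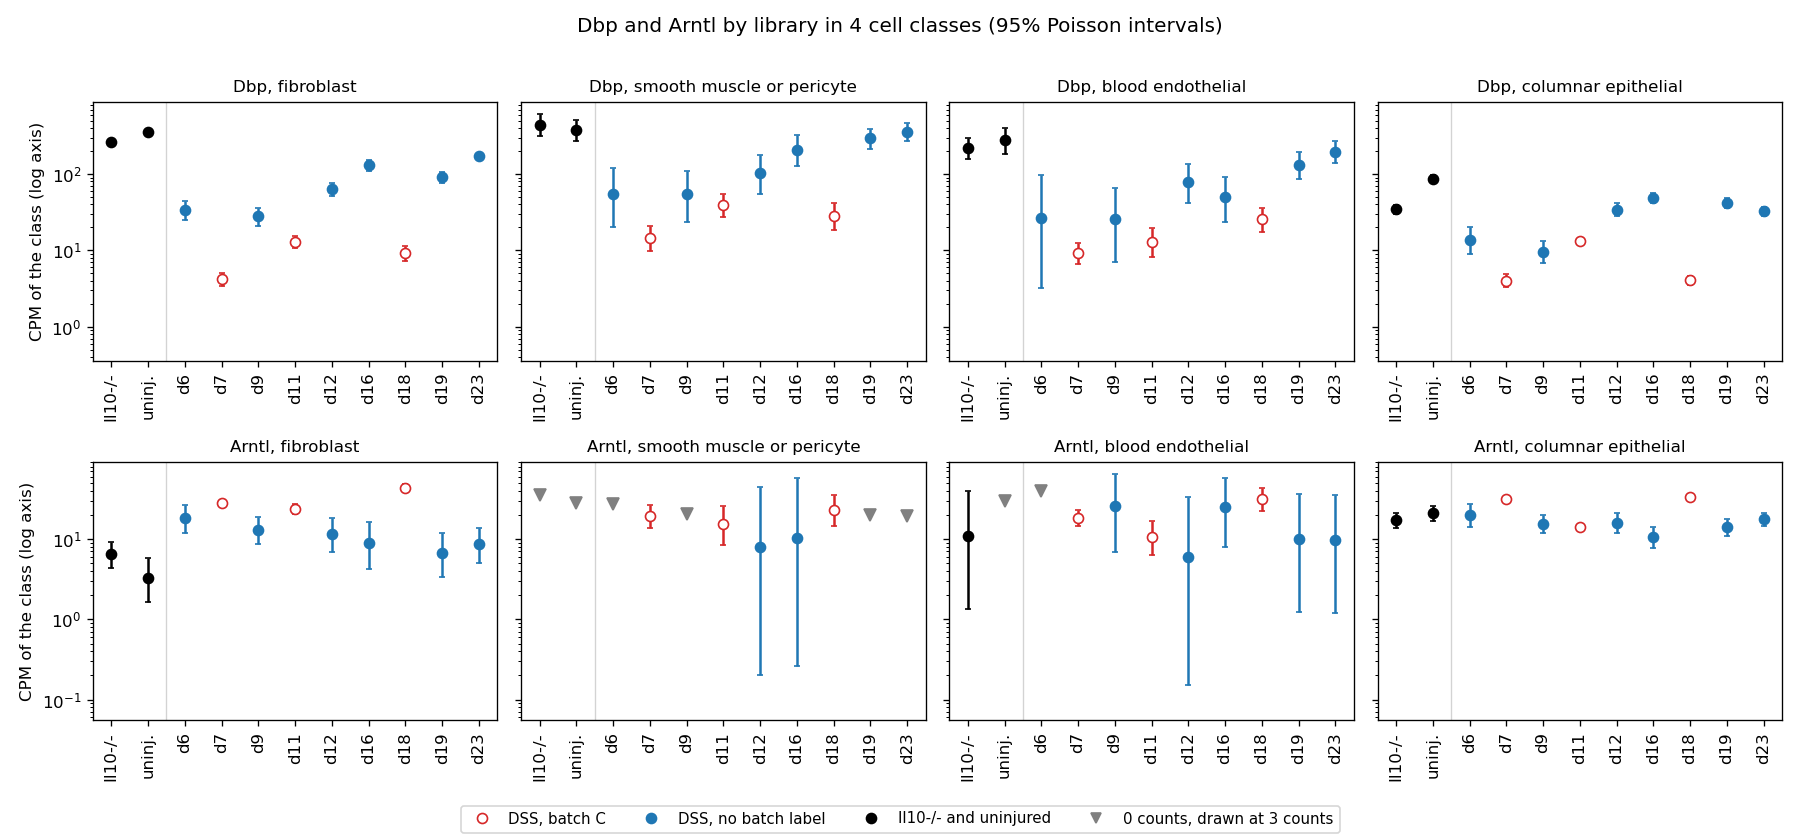
Dbp (upper panels) and Arntl (lower panels) in CPM on a log axis, by library, in fibroblasts, smooth muscle cells or pericytes, blood endothelial cells and columnar epithelial cells. Open points are DSS libraries of batch C, filled points the others, bars exact Poisson 95% intervals, and triangles mark 0 counts at the level of 3 counts. Dbp is lowest on day 7 in each of the 4 classes, though in columnar epithelial cells days 7 and 18 are nearly equal (4.03 and 4.05 CPM). In fibroblasts Arntl is highest on day 18 at 43.8 CPM and lowest in the uninjured library at 3.29 CPM.

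Whether the classes moved together was asked first by counting. Of the 7 classes with at least 20 cells in every library, Dbp was below the class's own median over the libraries in 7 of 7 on days 7, 9, 11 and 18 and in 6 of 7 on day 6. It was above the class median in 7 of 7 classes in the Il10-/- library and in 6 of 7 in the uninjured one. Some of these values rest on so few counts that their side of the median cannot be read. On day 6 T cells had 1 count in 58 cells and B cells 0 counts in 61 cells, and T cells of the uninjured library, the class not above its median there, had 0 counts. On days 12, 16, 19 and 23 no class was below its median, and 4, 6, 5 and 6 classes were above it. The mean over fibroblasts, columnar epithelial cells, blood endothelial cells and monocytes or macrophages of log2(CPM + 5), less each class's own mean, ran from -1.77 on day 7 through -0.61 on day 6 and 0.998 on day 23 to 1.76 in the uninjured library. Nr1d1 was below the class median in 7 of 7 classes on days 7 and 9 and above it in 7 of 7 in the Il10-/- library. Arntl was above it in 6 of 7 classes on day 18 and in 4 of 7 on day 7.

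**Figure D2:**
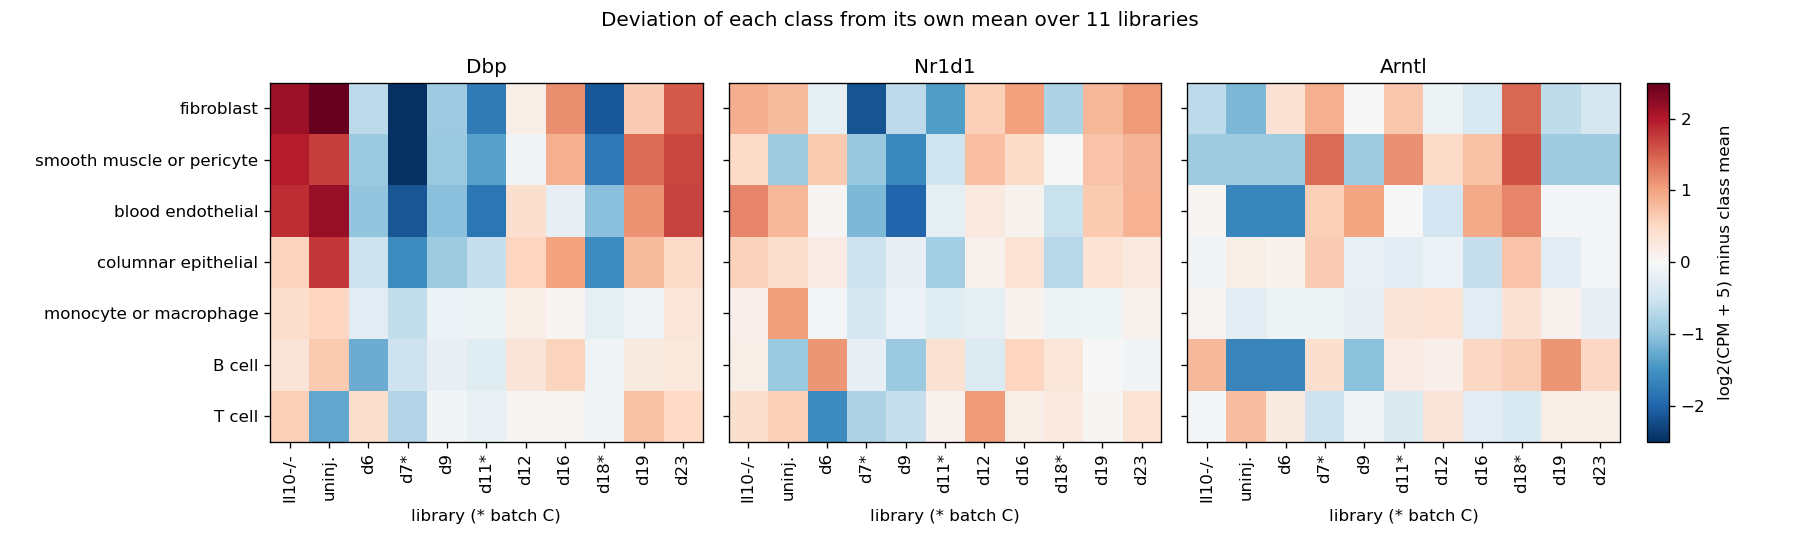
Dbp, Nr1d1 and Arntl as log2(CPM + 5) less the class's own mean over the 11 libraries, by class (down) and library (across), with batch C starred. Blue is below and red above the class mean. Dbp columns are mostly of 1 color, with day 7 below the mean in all 7 classes by 0.62 to 2.74 on the log2 scale, and the value of T cells in the uninjured library comes from 0 counts and cannot be read.

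Across libraries, the Dbp level of fibroblasts was set against that of 6 other classes on the log2(CPM + 5) scale, a relation added after the data were seen. Over the 11 libraries Pearson's r was 0.974 for smooth muscle cells or pericytes (rho = 0.982, permutation p = 1e-05 for both, the smallest that 100000 resamples can give, adjusted over 6 relations 6e-05). Within the 8 libraries outside batch C r was 0.935 (rho = 0.952, exact permutation p = 0.000918 and 0.00114, adjusted 0.00551 and 0.0067). Blood endothelial cells had r = 0.938 (rho = 0.964, permutation p = 7e-05 and 4e-05, adjusted 0.00016 and 0.00012), and 0.903 within the 8 (exact permutation p = 0.0035, adjusted 0.00699). Columnar epithelial cells had r = 0.927 (rho = 0.891, permutation p = 0.00011 and 0.0006, adjusted 0.000165 and 0.0009), and within the 8 r was 0.851 (exact permutation p = 0.00804, adjusted 0.0121) and rho 0.738 (p = 0.0458, adjusted 0.0687). These 3 classes kept an r of 0.970, 0.895 and 0.869 without day 7 and the uninjured library, the 2 farthest from the median fibroblast level.

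Immune classes varied. Monocytes or macrophages had r = 0.914 (rho = 0.909, permutation p = 8e-05 and 0.00025, adjusted 0.00016 and 0.0005), 0.905 within the 8 and 0.842 without day 7 and the uninjured library. B cells had r = 0.691 (rho = 0.782, permutation p = 0.015 and 0.00615, adjusted 0.018 and 0.00738), 0.727 within the 8 and 0.572 without those 2 libraries (exact permutation p = 0.0975). T cells had r = 0.138 (rho = 0.40, permutation p = 0.689 and 0.226), -0.320 within the 8 and 0.690 without day 7 and the uninjured library, so their value turned on those 2, of which the uninjured library had 38 T cells and 0 counts of Dbp. Batch C alone, with 3 libraries, was too small for such a relation. The classes of a library share a pool of mice, its handling and its sequencing run. How often other genes reach such an r between these classes is not given here, so these values have no background.

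How far the 4 main classes moved as 1 can be put as a library share, the part of the variance of log2(CPM + 5), after class means, that lies between libraries. A share of at least 0.7 was counted as moving together, among genes with a mean of at least 10 CPM in each class. Per1 (0.478) and Bhlhe40 (0.660) passed that level filter and neither reached 0.7, against 7.56% of 5039 genes. The other 8 members were below it in at least 1 class. Dbp (0.770) and Per3 (0.720) were over 0.7 but under the filter, and Nr1d1 (0.676) and Tef (0.641) were somewhat lower. Arntl had a share of 0.444, Ciart of 0.353, Per2 of 0.339 and Nr1d2 of 0.335, beside a median of 0.413 over all genes that passed. In 3 classes, without monocytes or macrophages, 8 members passed the filter and 5 reached 0.7, against 9.79% of 5557 genes. They were Dbp (0.907), Per3 (0.804), Nr1d1 (0.780), Bhlhe40 (0.752) and Tef (0.723). With smooth muscle cells or pericytes in place of monocytes or macrophages, an alternative chosen after the data were seen, Dbp had a share of 0.921 and, within the 8 libraries outside batch C, of 0.884. In the same setting 4.87% of 5447 genes reached 0.7. Per1, at 0.478 in the 4 classes, had a share of 0.912 without blood endothelial cells, where 21.5% of 5122 genes reached 0.7. The share is a description without a test.

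**Figure D3:**
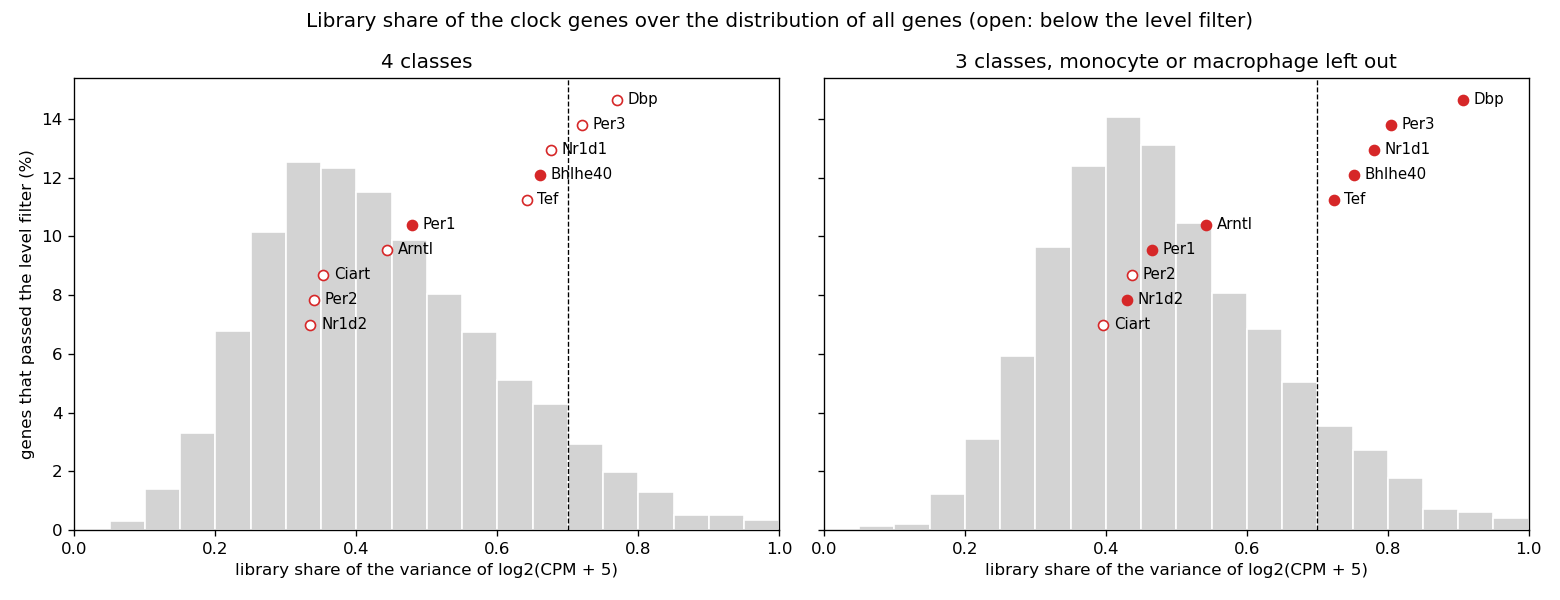
Library share of the variance of log2(CPM + 5) for the 10 clock genes (points, at arbitrary heights) over the distribution of all genes that passed the level filter (bars, percent of genes), in 4 classes and in 3 classes without monocytes or macrophages. Open points are genes under the filter, and the dashed line marks 0.7. Dbp is the member farthest to the right in both panels, at 0.770 and 0.907.

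Over the 11 libraries, the mean Dbp level of the 4 main classes was set against that of the 9 other members. Nr1d1 was the closest, with r = 0.961 and rho = 0.964 (permutation p = 1e-05 for both, the smallest that 100000 resamples can give, adjusted over the 9 relations 9e-05). Within the 8 libraries outside batch C the order of libraries by Nr1d1 was that by Dbp (rho = 1, exact permutation p = 4.96e-05, adjusted 0.000446) and r was 0.914 (exact p = 2.48e-05, adjusted 0.000223). Per3, the third of the period genes, had r = 0.903 (rho = 0.873, permutation p = 9e-05 and 0.00088, adjusted 0.000405 and 0.00264) and 0.926 within the 8 (exact p = 0.000744, adjusted 0.00335). Tef, the other PAR bZIP factor, had r = 0.920 (rho = 0.882, permutation p = 0.00019 and 0.00073, adjusted 0.00057 and 0.00264) and 0.852 within the 8 (exact p = 0.00776, adjusted 0.0233). Per1 had r = 0.851 (rho = 0.791, permutation p = 0.00147 and 0.00569, adjusted 0.00297 and 0.0102) and 0.787 within the 8 (exact p = 0.0212, adjusted 0.0478). By rank, Nr1d1 and Per3 passed within the 8, while Tef (rho = 0.762, exact p = 0.0368, adjusted 0.11) and Per1 (rho = 0.595, exact p = 0.132, adjusted 0.295) did not.

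Arntl, the activator whose phase is opposed to that of Dbp in animals, was related to it inversely, with r = -0.796 and rho = -0.809 (permutation p = 0.00165 and 0.00404, adjusted 0.00297 and 0.00909). Within the 8 libraries outside batch C this did not hold up (r = -0.612, exact permutation p = 0.105, adjusted 0.134). The remaining members passed by Pearson's r over the 11 libraries and not within the 8. Ciart had r = 0.756 and 0.356, Nr1d2 0.747 and 0.661, Bhlhe40 0.664 and 0.076, and Per2 0.614 and 0.622. In all, 9 of 9 members passed by Pearson's r over the 11 libraries, 5 without days 7 and 18, which lie farthest from the median Dbp level, and 4 within the 8. Among 4941 other genes with a mean of at least 10 CPM in each class, predicted and mitochondrial genes left out, 29.5% had an r with Dbp at least as far from 0 as the weakest of the 9 over the 11 libraries, 18.1% as the weakest of the 5 without days 7 and 18, and 14.7% as the weakest of the 4 within the 8. The 5 were Nr1d1, Per3, Tef, Per1 and Arntl. Of the clock genes only Per1 and Bhlhe40 passed that level filter, so these shares come from genes unlike most members in level. By rank over the 11 libraries, Nr1d2 (rho = 0.609, permutation p = 0.0508), Bhlhe40 (rho = 0.591, permutation p = 0.0596) and Per2 (rho = 0.509, permutation p = 0.114) did not pass.

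Within fibroblasts alone, a relation added after the data were seen, Arntl and Dbp had r = -0.932 and rho = -0.955 over the 11 libraries (permutation p = 5e-05 and 4e-05, adjusted over 2 classes 0.0001 and 8e-05). It held within the 8 libraries outside batch C (r = -0.890, exact permutation p = 0.00285, adjusted 0.0057) and without day 7 and the uninjured library (r = -0.903). In columnar epithelial cells it did not pass (r = -0.600, rho = -0.436, permutation p = 0.0514 and 0.182), and r was -0.053 within the 8 and 0.042 without days 7 and 18, so the value over the 11 libraries rested on those 2. The difference between the classes was not tested, and the mix of epithelial types, which differed between libraries, was not taken into account.

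**Figure D4:**
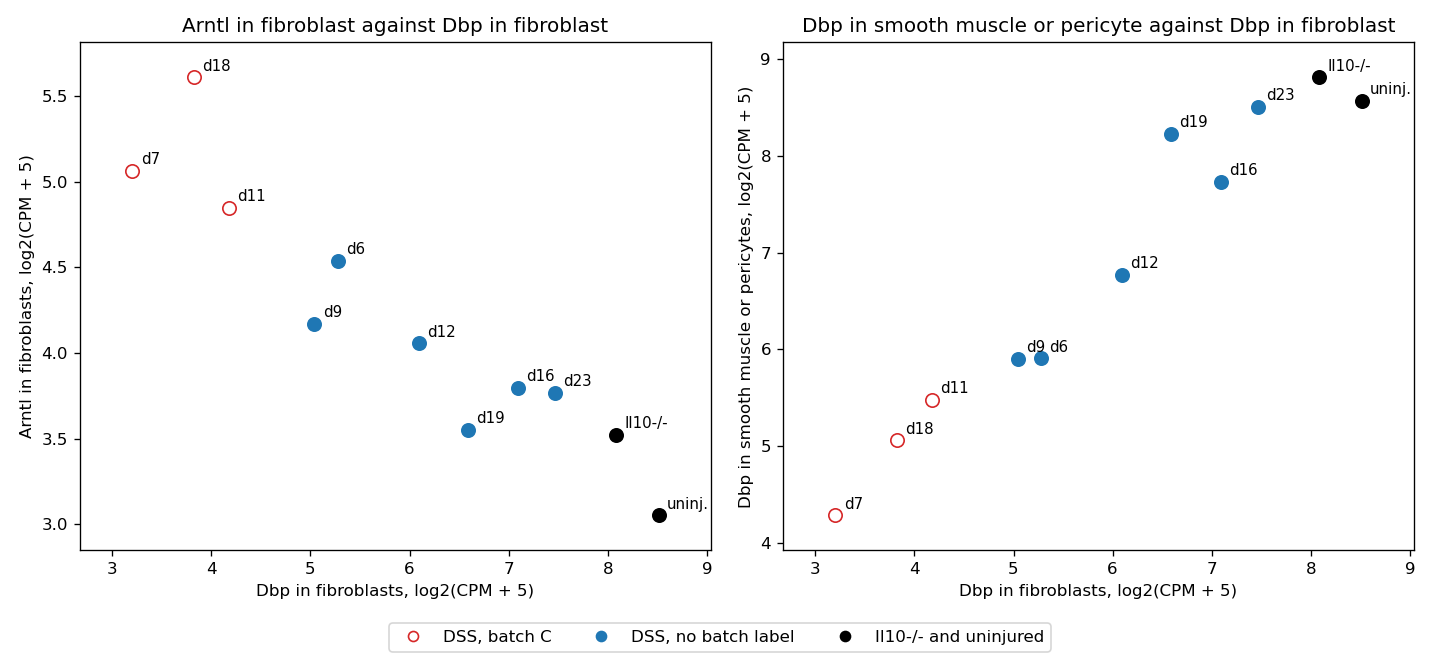
Arntl in fibroblasts (left) and Dbp in smooth muscle cells or pericytes (right) against Dbp in fibroblasts, both axes in log2(CPM + 5), 1 point per library. Open points are batch C. Fibroblast Arntl falls along the Dbp axis (r = -0.932) and Dbp of smooth muscle cells or pericytes rises along it (r = 0.974).

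In fibroblasts the repressors Nr1d1 and Per3 and the activator Tef were, like Dbp, lowest on day 7. Nr1d1 had 15.02, 29.0 and 46.7 CPM on days 7, 11 and 18 in batch C, against 51.5, 141 and 180 CPM as the lowest, median and highest of the 6 other DSS libraries, 161 CPM in the Il10-/- library and 149 CPM in the uninjured one. Per3 had 7.99, 12.1 and 11.7 CPM on those days in batch C, against 22.3, 29.3 and 40.9 CPM in the 6 others, 51.6 CPM in the Il10-/- library and 79.5 CPM in the uninjured one. Tef had 16.5, 24.4 and 23.2 CPM in batch C, against 36.5, 59.9 and 68.5 CPM in the 6 others, 66.4 CPM in the Il10-/- library and 93.2 CPM in the uninjured one. None of the 3 overlapped between batch C and the other DSS libraries. For Per3 and Tef the uninjured library was the highest of the 11, and for Nr1d1 day 23 was. Within the authors' Pi16/Pcolce2 fibroblasts Nr1d1 overlapped, at 18.1 to 50.5 CPM in batch C against 46.2 to 218 CPM. Within their Adamdec1/Bmp4 fibroblasts it did not, at 12.6 to 44.4 CPM in batch C against 60.4 to 154 CPM.

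Per1, which also responds at once to glucocorticoids and to other signals, ranged from 28.1 to 37.7 CPM in fibroblasts of batch C, from 41.4 to 70.3 CPM in the 6 other DSS libraries, and stood at 61.3 CPM in the Il10-/- library and 71.7 CPM in the uninjured one. Nr1d2 ranged from 26.3 to 37.5 CPM in batch C and from 37.5 to 101 CPM in the 6 others, with day 11 of batch C and day 9 nearly equal. Per2 ranged from 5.48 to 9.46 CPM in batch C, against 10.1 to 19.4 CPM in the 6 others, and was 8.05 CPM in the Il10-/- library and 14.6 CPM in the uninjured one. Bhlhe40, which responds to hypoxia and immune signals as well, ranged from 114 to 211 CPM in batch C, against 241 to 422 CPM in the 6 others, with 212 CPM in the Il10-/- library and 275 CPM in the uninjured one. Ciart was scarce and overlapped, at 0.391 to 0.996 CPM in batch C and 0.962 to 4.53 CPM in the 6 others. Per2 and Bhlhe40 set the Il10-/- library beside batch C and below the other DSS libraries, while Dbp, Nr1d1, Per3 and Tef set it at or above their median.

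Arntl in fibroblasts ran the other way. It had 28.4, 23.8 and 43.8 CPM on days 7, 11 and 18 in batch C, against 6.72, 10.3 and 18.3 CPM as the lowest, median and highest of the 6 other DSS libraries, 6.48 CPM in the Il10-/- library and 3.29 CPM in the uninjured one, from 10 to 655 counts. All 3 batch C libraries lay above all others in the class. Within the authors' Pi16/Pcolce2 fibroblasts the groups did not overlap, at 21.9 to 55.7 CPM in batch C against 6.82 to 16.8 CPM. Within their Adamdec1/Bmp4 fibroblasts they overlapped, at 21.8 to 35.2 CPM in batch C against 4.04 to 24.9 CPM. Columnar epithelial cells had 31.3, 14.2 and 33.2 CPM on those days in batch C, against 10.6, 15.8 and 19.9 CPM in the 6 others. They had 17.1 CPM in the Il10-/- library and 20.8 CPM in the uninjured one, and day 11 lay inside the range of the 6 others. Within the authors' Car4/Ly6g epithelial type, batch C had 21.88 to 55.9 CPM and the other DSS libraries 10.96 to 21.85 CPM, barely apart. Within their Car4, Crypt-1 and Crypt-2 types the groups overlapped. T cells had 18.8, 21.3 and 21.1 CPM in batch C, against 23.3, 33.3 and 37.6 CPM in the 6 others, 28.1 CPM in the Il10-/- library and 53.3 CPM, from 3 counts, in the uninjured one. In T cells batch C therefore lay below the other DSS libraries for Arntl, opposite to fibroblasts, but by a narrow margin. In the authors' T cells without the proliferating type the groups overlapped, at 20.7 to 22.7 CPM against 22.5 to 39.5 CPM. By the edgeR fit described next, the difference in T cells was not called (-0.67, adjusted p = 0.0543). Whether the 2 classes differed was not tested.

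Batch C was set against the 6 other DSS libraries with the batch term of the edgeR quasi-likelihood fit over day and batch label, a test added after the data were seen. Over 62 pairs of a member and a class that passed the count filter, 24 were called at an adjusted p under 0.05, with 23 lower and 1 higher in batch C, against 14.4% of 64289 pairs over all genes. In fibroblasts all 9 members tested were called, against 15.3% of 10290 genes, and Ciart was below the filter. Dbp had the largest difference, at -3.05 ± 0.43 on the log2 scale (SE, 3 against 6 libraries, adjusted p = 0.00316). Nr1d1 differed by -2.09 ± 0.23 (adjusted p = 0.000171), Per3 by -1.71 ± 0.20 (adjusted p = 4.42e-05), Tef by -1.51 ± 0.15 (adjusted p = 5.38e-06) and Nr1d2 by -1.33 ± 0.21 (adjusted p = 0.00122). Bhlhe40 (-1.30, adjusted p = 0.00106), Per2 (-1.21, adjusted p = 0.00326) and Per1 (-1.10, adjusted p = 0.000616) were lower too. Arntl was higher by 1.26 ± 0.25 (adjusted p = 0.00475), and without day 18 by 0.70 (adjusted p = 0.0527). The median of the 9 was -1.33, and that of all genes tested 0.02. Of the 9 members tested, all 3 batch C libraries lay below the 6 others for 8, against 3.54% of 10290 genes. They lay above the 6 others for 1, Arntl, against 17.9%. The mix of fibroblast types differed between libraries and was not a term of the fit. The authors' Adamdec1/Bmp4 type had 1065 of 2033 fibroblasts on day 7 and 64 of 341 on day 12.

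In columnar epithelial cells 6 of 10 members were called lower in batch C, against 10.4% of 10914 genes called in either direction. They were Ciart (-2.35 ± 0.51, adjusted p = 0.0181), Dbp (-2.06 ± 0.56, adjusted p = 0.0436), Tef (-1.17), Nr1d1 (-1.06), Per1 (-1.01) and Bhlhe40 (-0.70). Without day 18 none of the 6 was called, and Dbp was at -1.43 (adjusted p = 0.201). The calls of Dbp and Bhlhe40 also ended without most of the other libraries, with Dbp between -1.43 and -2.28 and Bhlhe40 between -0.59 and -0.78. Nr1d1 had 72.3, 57.5 and 64.1 CPM in these cells on days 7, 11 and 18 in batch C, against 92.9, 126 and 138 CPM as the lowest, median and highest of the 6 others, 163 CPM in the Il10-/- library and 147 CPM in the uninjured one. Its groups did not overlap, and neither did those of Ciart, Tef, Per1 and Bhlhe40. Batch C thus lay below the 6 others for 5 of 10 members, against 3.96% of 10914 genes. The mix of epithelial types, which differed between libraries, was not a term of the fit.

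Fewer members were called in the other classes. Smooth muscle cells or pericytes had 3 of 6 called, against 11.7% of 2735 genes, with Dbp at -2.24 ± 0.36 (adjusted p = 0.00171), Tef at -1.19 (adjusted p = 0.0459) and Bhlhe40 at -0.89 (adjusted p = 0.0419). Leaving out 7 of the 9 libraries, each in turn, ended the call of Bhlhe40 and 6 of them that of Tef, with adjusted p up to 0.238 and 0.221 without day 18. In blood endothelial cells 1 of 6 was called, Dbp at -2.02 ± 0.34 (adjusted p = 0.000594), against 11.3% of 3537 genes. Monocytes or macrophages had 2 of 9 called, Per1 (-0.84, adjusted p = 0.00265) and Bhlhe40 (-0.55, adjusted p = 0.000489), against 25.4% of 10058 genes, so the members' share was near the background. T cells had 2 of 7, Per1 (-0.86, adjusted p = 0.00548, and 0.123 without day 18) and Bhlhe40 (-0.82, adjusted p = 0.00156), against 11.7% of 7848 genes. B cells had 1 of 5, Per1 (-0.99, adjusted p = 5.25e-05), against 18.1% of 6852 genes. Neutrophils had 0 of 8 called (3 at an unadjusted p under 0.05, and 1, Bhlhe40, by DESeq2), against 11.2% of 8394 genes. Plasma cells had 0 of 2 (1 at an unadjusted p under 0.05, and 0 by DESeq2), against 3.8% of 3661 genes.

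Batch C also differed from the other DSS libraries in depth, storage, the number of pooled mice and RNA makeup. Fibroblasts of batch C had median UMI counts per cell of 8969.5 to 13802.5, against 2517.5 to 4306 in the 6 other DSS libraries, 5172 in the Il10-/- library and 4049 in the uninjured one. Their median mitochondrial share was 4.04% to 4.69%, against 6.22% to 9.35%, 3.96% in the Il10-/- library and 5.45% in the uninjured one. Malat1, an abundant nuclear RNA, had 14429 to 15767 CPM in fibroblasts of batch C, against 20452 to 31935 CPM, 32478 CPM in the Il10-/- library and 40628 CPM in the uninjured one. Batch C and the other DSS libraries did not overlap in any of these 3 measures. These properties and a sampling hour, if it differed, cannot be told apart for batch C. The 8 libraries outside batch C share storage and pool size by the cell table. Among them Dbp in fibroblasts ranged from 27.9 CPM on day 9 to 360 CPM in the uninjured library, and Malat1 there from 20452 to 40628 CPM. Injury, day, genotype, age, RNA makeup and a sampling hour, if it differed, cannot be told apart among these 8 either.

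Lower Dbp in batch C was also seen within the authors' finer types. Of the authors' types, 12 had at least 20 cells in all 3 batch C libraries and in at least 4 others of DSS. The batch C median of Dbp was lower in 12 of these, some of them with few counts. The groups did not overlap in 4 of the 12. How often other genes reach such counts is not given here, and the types of a library share a pool of mice. In Pi16/Pcolce2 fibroblasts Dbp ranged from 7.39 to 17.2 CPM in batch C, from 29.5 to 205 CPM in the other DSS libraries, and was 279 CPM in the Il10-/- library and 380 CPM in the uninjured one. In Adamdec1/Bmp4 fibroblasts it ranged from 1.83 to 9.30 CPM, against 10.7 to 154 CPM, with 231 CPM in the Il10-/- library and 282 CPM in the uninjured one. In the Car4/Ly6g type, an epithelial type, it ranged from 4.11 to 25.6 CPM, against 19.5 to 120 CPM, so that the groups overlapped, with 58.6 CPM in the Il10-/- library and 186 CPM in the uninjured one. The batch C median of Nr1d1 was lower in 9 of 12 types, and that of Arntl in 1 of 12, T cells. The groups did not overlap in 6 of the 12 types for Nr1d1 and in 2 for Arntl.

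**Figure D5:**
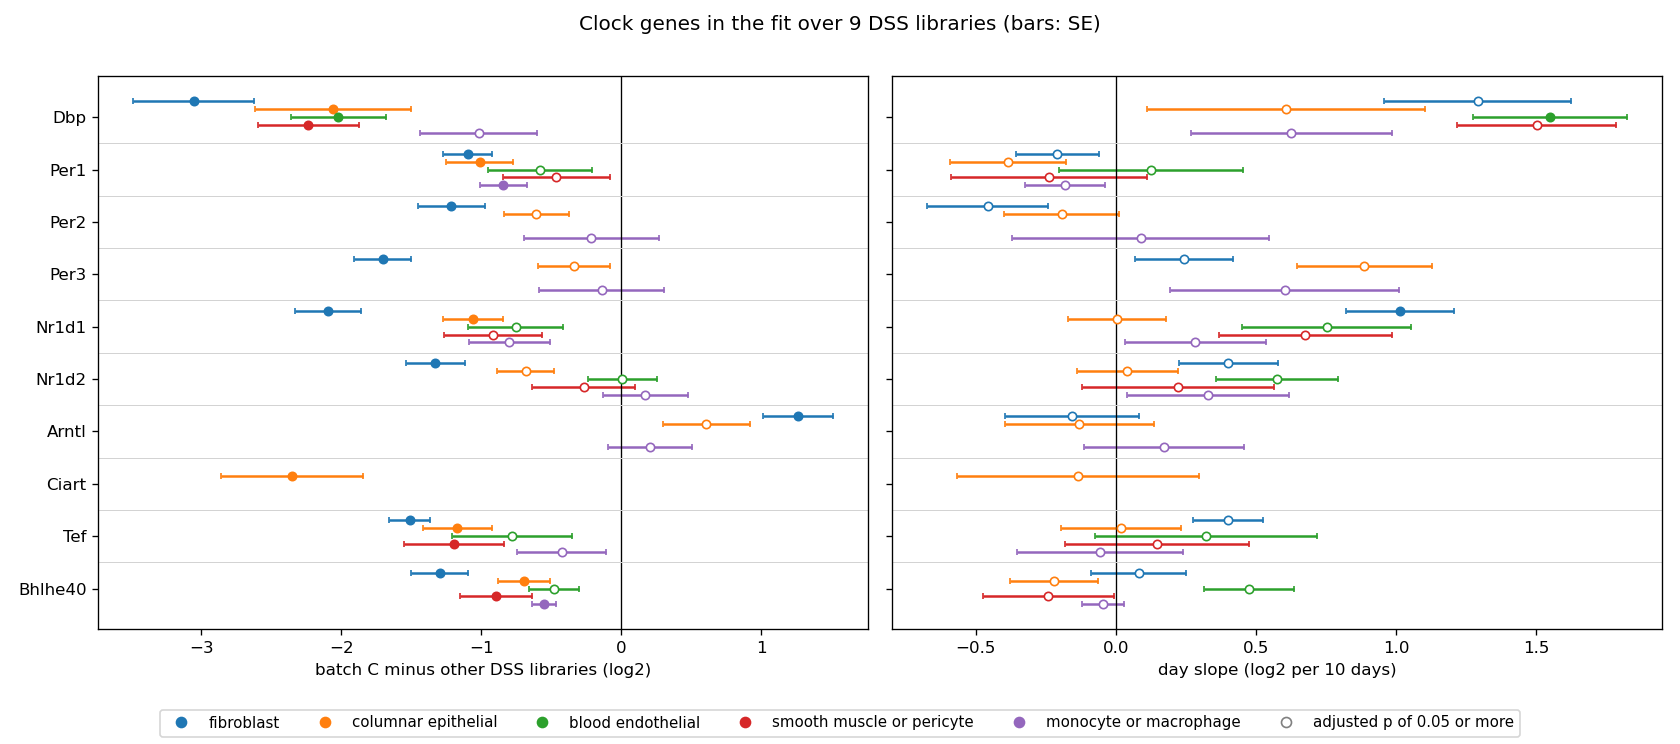
Difference of batch C from the other DSS libraries (left, log2) and day slope (right, log2 per 10 days) of the clock genes in 5 classes, from 1 edgeR fit per class over the 9 DSS libraries, with SE bars. Filled points have an adjusted p under 0.05, and a missing point is a gene below the count filter. On the left all 9 fibroblast points are filled, with Arntl at 1.26 on the right of 0, and on the right Dbp in blood endothelial cells (1.55) and Nr1d1 in fibroblasts (1.01) are filled.

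Day by day, from acute injury to repair, Dbp is given here for the 6 DSS libraries outside batch C. In fibroblasts it was 33.8, 27.9, 63.4, 132, 91.1 and 172 CPM on days 6, 9, 12, 16, 19 and 23. In blood endothelial cells it was 26.7, 25.6, 78.5, 49.7, 131 and 197 CPM on the same days, and in smooth muscle cells or pericytes 54.9, 54.9, 104, 208, 295 and 358 CPM. In columnar epithelial cells it was 13.8, 9.59, 34.4, 49.0, 41.8 and 32.6 CPM. All 4 classes had more Dbp on day 12 than on days 6 and 9. The 3 stromal classes were highest on day 23 and columnar epithelial cells on day 16.

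The edgeR fit over the 9 DSS libraries, with day and batch label as terms, called a day slope for 2 of 62 pairs of a member and a class, both upward, against 3.26% of 64289 pairs over all genes, so the count was near the background. Dbp rose in blood endothelial cells by 1.55 ± 0.27 per 10 days on the log2 scale (SE over the 9 libraries, adjusted p = 0.00758), 1 of 6 members, against 1.3% of 3537 genes. Without day 23 the slope was 1.43 (adjusted p = 0.155), and with no batch term it was 2.53 (adjusted p = 0.0852). Nr1d1 rose in fibroblasts by 1.01 ± 0.19 (adjusted p = 0.0178), 1 of 9 members, against 4.65% of 10290 genes. Its adjusted p was 0.0714 without day 6, 0.0884 without day 18, 0.0782 in the 6 libraries outside batch C and 0.451 when batch was left out of the model, with slopes of 1.09, 0.97, 0.92 and 1.24.

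Other slopes of Dbp were upward and did not pass over the 9 libraries. They were 1.29 ± 0.33 in fibroblasts (adjusted p = 0.0815), 1.5 ± 0.28 in smooth muscle cells or pericytes (adjusted p = 0.0949), 1.95 ± 0.68 in neutrophils (adjusted p = 0.138), 0.61 ± 0.50 in columnar epithelial cells (adjusted p = 0.643), 0.63 ± 0.36 in monocytes or macrophages (adjusted p = 0.264) and 0.80 ± 0.39 in T cells (adjusted p = 0.525). In the 6 libraries outside batch C the slope passed in blood endothelial cells (1.75, adjusted p = 0.00265), fibroblasts (1.46, adjusted p = 0.0161), smooth muscle cells or pericytes (1.79, adjusted p = 0.0111) and neutrophils (2.81, adjusted p = 0.0204). DESeq2 called it in fibroblasts (adjusted p = 0.000567), smooth muscle cells or pericytes (adjusted p = 0.00208) and neutrophils (adjusted p = 0.0371), and gave no adjusted p in blood endothelial cells.

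No member had a slope called by edgeR in the other classes. The backgrounds there were 0.229% of 10914 genes in columnar epithelial cells, 12.4% of 10058 in monocytes or macrophages, 2.61% of 8394 in neutrophils, 0.217% of 7848 in T cells, 0.876% of 6852 in B cells, 0.164% of 3661 in plasma cells and 0 of 2735 (0%) in smooth muscle cells or pericytes. In columnar epithelial cells 1 of 10 members had an unadjusted p under 0.05, Per3, at 0.89 ± 0.24 (adjusted p = 0.156), which DESeq2 called. In smooth muscle cells or pericytes 186 genes had an unadjusted p under 0.05 and DESeq2 called 25. In neutrophils 6 of 8 members had an unadjusted p under 0.05, with Nr1d1 at 1.38 (adjusted p = 0.0595), and DESeq2 called Nr1d1 and Dbp there. Unadjusted, 2 of 5 members in B cells, 1 of 2 in plasma cells, 2 of 6 in smooth muscle cells or pericytes and 0 in T cells and in monocytes or macrophages were under 0.05, and DESeq2 called 1 of these, Dbp in smooth muscle cells or pericytes. Slopes of Arntl were between -0.16 in fibroblasts and 0.74 in B cells (adjusted p = 0.802 and 0.467).

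Whether day slopes differed between fibroblasts, columnar epithelial cells, blood endothelial cells and monocytes or macrophages was tested in 1 edgeR model with library, class and class by batch label as terms. No member passed, against 2.54% of 11992 genes. Of the 10 members, 4 had an unadjusted p under 0.05: Nr1d1 (adjusted p = 0.0604), Bhlhe40 (adjusted p = 0.114), Dbp (adjusted p = 0.15) and Per3 (adjusted p = 0.233). For Nr1d1 the slope in fibroblasts was above that in columnar epithelial cells by 1.01 log2 units per 10 days, and for Dbp the slope in blood endothelial cells was above it by 1.28. Nr1d1 passed under RLE scaling, with no count filter and in the 6 libraries outside batch C. The test did not show that the slopes are equal.

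Among 19 other genes of the clock, 15 were tested in fibroblasts, and 2 rose and 1 fell with day, against 4.65% of 10290 genes called in either direction. Nfil3, the repressor that opposes Dbp at D-boxes, fell by 1.21 log2 units per 10 days (SE 0.13, adjusted p = 0.000238). Bhlhe41, a relative of Bhlhe40, rose by 1.12 ± 0.21 (adjusted p = 0.00772), though not without day 23 (adjusted p = 0.0619). Rora, which activates through ROR elements, rose by 0.46 ± 0.10 (adjusted p = 0.0185), though not without day 6, 9 or 18 (adjusted p = 0.0999, 0.0549 and 0.0896). In monocytes or macrophages 3 of 12 fell, against 12.4% of 10058 genes called in either direction, among them Cry1 (-0.68 ± 0.16, adjusted p = 0.0157), a partner of the Per proteins, and Nfil3 (-0.44 ± 0.11, adjusted p = 0.0251). Cry1 was not called without day 23 and Nfil3 not without day 6, 7 or 18, with adjusted p between 0.053 and 0.0839. By edgeR none of 13 was called in columnar epithelial cells (2 at an unadjusted p under 0.05, and 1, Nfil3, by DESeq2), where Nfil3 (-0.78, adjusted p = 0.0751) and Wee1 (0.55, adjusted p = 0.27) had the steepest slopes. None of 4 was called in blood endothelial cells (0 at an unadjusted p under 0.05 and 0 by DESeq2), with Csnk1e (-0.19) and Csnk1d (-0.09) the steepest. Of those not called in monocytes or macrophages, Wee1 (1.18, adjusted p = 0.062) and Timeless (0.92, adjusted p = 0.131) were the steepest. No slope was called by edgeR or DESeq2 in T cells (11 genes, 1 at an unadjusted p under 0.05), with Hlf at 0.58, in neutrophils (10 genes, 2 under 0.05; Clock 0.64 and Cry1 -0.62), in B cells (5 genes, 0 under 0.05; Cry1 -0.15), in plasma cells (4 genes, 2 under 0.05; Nfil3 -1.28 and Bhlhe41 0.55) or in smooth muscle cells or pericytes (4 genes, 0 under 0.05; Rora 0.27 and Csnk1e 0.22).

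Against the other DSS libraries, batch C fibroblasts had 2 of these 15 genes higher and 3 lower, against 15.3% of 10290 genes called in either direction. Clock (0.55 ± 0.14, adjusted p = 0.0191) and Npas2 (0.95 ± 0.30, adjusted p = 0.0484), the partners of Arntl, were higher. Bhlhe41 (-2.31 ± 0.25, adjusted p = 2.53e-05), Hlf (-0.93 ± 0.28, adjusted p = 0.0469), the third PAR bZIP factor, and Cry2 (-0.54 ± 0.14, adjusted p = 0.0172) were lower. Without day 18 Clock was at 0.32 (adjusted p = 0.276), Npas2 at 0.32 (adjusted p = 0.681) and Hlf at -0.62 (adjusted p = 0.255), and Cry2 was not called without day 11 (adjusted p = 0.0682). Npas2 and Hlf were also lost without most other libraries, and Bhlhe41 was called in each. In columnar epithelial cells Clock was higher (0.73 ± 0.14, adjusted p = 0.0105), and without day 18 it was at 0.58 (adjusted p = 0.14). In monocytes or macrophages Timeless was higher (1.24) and Cry2 lower (-0.83), in B cells Nfil3 was lower (-1.52) and in smooth muscle cells or pericytes Csnk1e was higher (0.91), and each of these 4 was lost without day 18, at adjusted p between 0.105 and 0.272. Cry2 in monocytes or macrophages and Csnk1e were also lost by DESeq2 and without most other libraries, and Timeless without most of them.

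Per1 and Bhlhe40 also answer to handling and to stress hormones, so levels of such genes are given beside them. Immediate early genes, induced within minutes by stimuli that include tissue dissociation, summed to between 20811 and 25322 CPM in fibroblasts of batch C, against 17320 to 26125 CPM in the other DSS libraries, 24260 CPM in the Il10-/- library and 26135 CPM in the uninjured one. The groups overlapped, and of the 15 genes 3 were called higher and 2 lower in batch C, against 15.3% of all genes called in either direction. Genes of the glucocorticoid response summed to between 3519 and 13490 CPM in batch C, against 8322 to 27660 CPM, 6039 CPM in the Il10-/- library and 5956 CPM in the uninjured one, and of 9 genes tested 2 were called higher and 2 lower. With day, 4 of the 15 immediate early genes rose and 2 fell in fibroblasts, and 3 of the 9 glucocorticoid response genes fell. The background for these day counts was 4.65%. In the other classes where Per1 was called lower in batch C, none of the 15 immediate early genes was called by edgeR in columnar epithelial cells (2 at an unadjusted p under 0.05, and 1, lower, by DESeq2), 8 were lower in B cells and none higher, 4 were lower and 1 higher in monocytes or macrophages, and 1 was lower and 2 higher in T cells. Of the glucocorticoid response genes tested there, 1 of 10 was lower and none higher in columnar epithelial cells, 1 of 8 lower and 1 higher in B cells, 4 of 8 lower and 1 higher in monocytes or macrophages, and 3 of 9 lower and 2 higher in T cells. The backgrounds in these classes were 10.4%, 18.1%, 25.4% and 11.7% of genes. Their part in the levels of Per1 and Bhlhe40 was not tested.

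With the 10 clock genes themselves left out, the 10 genes most like Dbp across the 11 libraries were taken by Pearson's r of the mean over the 4 main classes among 4941 genes. Malat1 came first (r = 0.970, and 0.956 within the 8 libraries outside batch C). It was followed by Pea15a (0.922), Mpst (0.922), a sulfurtransferase, Rpia (0.920), an enzyme of the pentose phosphate pathway, S100a1 (0.918), Gpx4 (0.914), which reduces lipid peroxides, Nenf (0.906), Vkorc1 (0.905), which recycles vitamin K, Uqcrc1 (0.894), a subunit of respiratory complex III, and Naxe (0.894). Their SD over libraries was smaller, at 0.41 on the log2 scale for Malat1 and between 0.12 and 0.33 for the other 9, against 1.15 for Dbp. Within the 8 libraries Mpst had rank 2 (r = 0.980) and Malat1 rank 10 among the 4941, and the other 8 had ranks between 28 and 194. These r values describe 11 points that do not share handling and depth, since batch C differed from the 8 other libraries in both. The part of these differences in the r values was not tested.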

How the data were processed

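Droplet single-cell RNA sequencing of mouse colonic mucosa was analysed in 11 libraries, 1 per group. The values are UMI counts per gene and cell, deposited by the authors as 1 matrix of 68224 cells with a table of genes and a table of cells. Reads were processed with Cell Ranger 3.0.0 and mm10, per the submitters' processing notes, and how cells were filtered and typed is not given in the sources used here. The library numbers of 3 libraries in the cell table match no sample, and their 12621 cells were not used. The storage, batch and number of mice come from the cell table. Rows with placeholder names (597 of 30406, 0.517% of counts) were left out. No further cell filter and no doublet caller were applied.

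The authors' 28 types were joined to 16 classes and counts were summed per library and class. CPM were computed from those sums, with exact Poisson 95% intervals that cover counting error only. Library totals of 7963048 to 87491138 counts set the precision. Day slopes and the batch label difference were fitted with edgeR 4.0.16 (quasi-likelihood, robust, TMM, filterByExpr, R 4.3.3) with day per 10 days and the batch label as terms. The fits covered the 9 DSS libraries, and the 9 classes that had 20 or more cells in 7 or more of these. P-values were adjusted by Benjamini-Hochberg over all genes of a class, and 0.05 was the threshold. Each library is 1 pool, so p-values measure the spread between pools around a trend. The joint test of unequal slopes used 4 classes and 36 sums. Correlations used log2(CPM + 5) and two-sided permutation tests (100000 resamples, or every ordering for 8 or 9 libraries). The code was tested on simulated data.

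The clock genes and all lists were chosen with earlier results of these data known. All 10 clock genes are named. Of 19 other clock genes, those called in a class and the 2 steepest in each class are named, except that some of these are not reported here. The genes most like Dbp are the 10 with the highest Pearson's r, leaving out the 10 clock genes, predicted genes and mitochondrial genes. The batch label difference, the relations between classes, the relation of Dbp and Arntl within a class and the use of smooth muscle cells or pericytes in the library share were added after the data were seen. Alternatives were DESeq2 1.42.0, RLE scaling, no count filter, cells with at least 1000 UMIs, no batch term, the 6 or 8 libraries outside batch C, other pseudocounts and level filters, each class left out and each library left out.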

Additional observations from a re-analysis of the deposited data

How the results depend on the processing

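Leaving out each DSS library in turn gave 23 to 132 genes with a day slope in B cells, 0 to 110 in T cells, 39 to 78 in blood endothelial cells, 1 to 179 in columnar epithelial cells and 167 to 636 in fibroblasts. It gave 447 to 1368 in monocytes or macrophages, 35 to 286 in neutrophils, 0 to 60 in plasma cells and 0 to 14 in smooth muscle cells or pericytes, and 34 to 1473 genes with unequal slopes. Pairs of a clock gene and a class with a day slope ranged from 1 to 5, those with a batch C difference from 15 (without day 18) to 26, and clock genes with unequal slopes from 0 to 2. DESeq2 called day slopes of 73 genes in T cells, 107 in blood endothelial cells, 353 in columnar epithelial cells, 762 in fibroblasts, 443 in neutrophils, 47 in plasma cells and 25 in smooth muscle cells or pericytes. With no count filter the counts were 121 in B cells, 266 in T cells, 411 in blood endothelial cells, 120 in columnar epithelial cells, 770 in neutrophils, 114 in plasma cells, 90 in smooth muscle cells or pericytes and 799 with unequal slopes. With no batch term they were 0 in B, T and plasma cells, 17 in blood endothelial cells, 8 in columnar epithelial cells, 89 in fibroblasts, 152 in monocytes or macrophages and 21 in neutrophils. In the 6 libraries outside batch C they were 43 in T cells, 86 in blood endothelial cells, 109 in columnar epithelial cells, 134 in neutrophils, 47 in plasma cells and 5 in smooth muscle cells or pericytes, and cells with at least 1000 UMIs gave 27 in T cells. Pairs of a clock gene and a class with a day slope numbered 7 by DESeq2, 5 with no count filter, 0 with no batch term and 4 in the 6 libraries outside batch C. For unequal slopes, RLE scaling, no count filter and those 6 libraries each called 1 clock gene. Clock genes with a library share of at least 0.7 numbered 2 at a mean of at least 2 CPM, 1 without blood endothelial cells, 5 without monocytes or macrophages, 2 with smooth muscle cells or pericytes in their place and 1 in that setting within 8 libraries. Of the 9 relations to Dbp, 4 passed in the 8 libraries outside batch C and 5 without days 7 and 18, and that of Arntl was -0.61 in the 8. The cause of these changes was not tested. Of results for single genes under the alternatives, 689 kept their direction and side of the threshold, 71 lost the call, 12 gained one, 16 moved with no test and none turned its direction. Among relations between classes or within a class, which are not in those counts, Dbp in T cells against fibroblasts and Arntl against Dbp in columnar epithelial cells changed sign. The first had r = -0.320 within the 8 libraries outside batch C, against 0.138 over the 11, and the second 0.042 without days 7 and 18, against -0.600. No paired analysis was possible because each group has 1 library and the labels give no replicate numbers. Blood endothelial cells, with 2 to 41 counts of Dbp per library, and the immune classes are limited by depth.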
